A study of Felis catus with 15 samples.

Results

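The HOX genes are the homeodomain transcription factors of the HOXA, HOXB, HOXC and HOXD clusters. All 39 genes of the domestic cat (Felis catus) whose symbol is HOX, a cluster letter and a number only were found among the 38995 genes of the count table. Antisense and other non-coding genes of the clusters are not members. Of the 39, 29 passed the filter on low counts and were tested among 18038 genes: 9 HOXA, 8 HOXB, 6 HOXC and 6 HOXD genes. RNA-seq was done on the corpus, the part of the epididymis between its head and tail, in 3 groups of 5 libraries. The first group is explants (tissue pieces) cultured with extracellular vesicles (EVs), which are membrane-bound particles released by cells and which per the series text came from the caput, the region upstream. The second is explants cultured without added vesicles, and the third is fresh tissue. The labels carry D3 for both cultures and D0 for fresh tissue. The labels do not say what these codes mean, how old the animals were or whether replicates are separate animals, so p-values measure the spread between these libraries.

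HOX genes lie in clusters in the same order as the body regions they mark, and low-numbered genes act toward the head end and high-numbered genes toward the tail end. Genes with the same number in different clusters are paralogues, descended from 1 ancestral gene, and often act together. Adult tissues keep much of the HOX pattern laid down in the embryo, in epithelium and in the connective tissue around it, so the pattern is read as a record of position. In mice, HOXA10 and HOXA11 help set the border between the epididymis and the vas deferens, and the genes numbered 13 act in the lowest part of the urogenital tract.

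Total counts were 17308832 to 27420218 in culture with EVs, 19308190 to 25454399 in culture and 17751507 to 24841100 in fresh tissue. Levels are CPM (counts scaled to a common library size), adjusted by edgeR's trimmed mean of M values, and series of 5 values run over libraries 1 to 5 of a group. Levels are compared between libraries, never between genes, because transcript lengths were not used here. Markers of principal cells, the main secretory cells of the epididymal duct, summed to 2463 to 3982 CPM in culture with EVs, 1754 to 3521 CPM in culture and 20698 to 27279 CPM in fresh tissue. Culture 3 stood apart: the 13 mitochondrially encoded protein genes took 0.179% of its counts, against 6.40% to 7.26% in culture with EVs, 6.23% to 7.48% in the other 4 cultures and 8.69% to 11.4% in fresh tissue. In this library HOXA6, HOXB6, HOXB7 and HOXD9 were above every other cultured library. HOXA2, HOXA3, HOXA5, HOXA7, HOXA9, HOXB3, HOXB9, HOXC9, HOXD1 and HOXD8 were below every other cultured library there.

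Fresh corpus carried nearly the whole low- and middle-numbered HOX set and almost none of the highest numbers. With expressed taken as 1 CPM or more in all 5 fresh libraries, 27 of the 39 genes were expressed. These were 11 of the 12 genes numbered 1 to 4, all 11 genes numbered 5 to 8, 5 of the 7 genes numbered 9 or 10, and 0 of the 9 genes numbered 11 to 13. HOXB1, a hindbrain gene, was the exception among the genes numbered 1 to 4, with 0 counts in all 15 libraries. HOXC9 and HOXC10, which in mice act in the trunk and hindlimb region, were outside the limit, HOXC9 only just. HOXC9 was at 2.55, 2.21, 1.23, 0.981 and 1.75 CPM in fresh tissue and HOXC10 at 1.97, 2.45, 0.484, 0.750 and 0.670 CPM. Just inside it were HOXC8, with a lowest fresh value of 1.04 CPM, and HOXD10, with a lowest of 1.36 CPM.

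At the 5′ ends of the clusters, 6 genes had 0 counts in every fresh library: HOXA13 and HOXD13, which pattern digits and external genitalia, HOXC13, a hair and nail gene, HOXB13, a prostate gene, and HOXC12 and HOXD12. With HOXB1 these made 7 genes at 0 in fresh tissue. A count of 0 over the group allows up to 0.0280 CPM there, for counting error only. Of the 7, HOXB13 alone had counts in cultured tissue: 5 in each of culture with EVs 2 and 3, and 4 in culture 5. HOXA11, HOXC11 and HOXD11 were near 0. HOXA11 had 4, 5, 0, 0 and 2 counts in culture with EVs, 9, 10, 0, 0 and 0 counts in culture and 6, 0, 0, 0 and 0 counts in fresh tissue. HOXD11 had 2, 27, 9, 5 and 10 counts in culture with EVs, 4, 29, 0, 3 and 8 in culture and 13, 0, 0, 0 and 0 in fresh tissue. HOXC11 had 4 counts in fresh 1 and 0 elsewhere. In fresh tissue all counts of the genes numbered 11 to 13 were thus in fresh 1, and in both cultures library 2 held the most HOXD11. None of these 10 genes passed the filter, and no fold change is given for them.

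**Figure D1:**
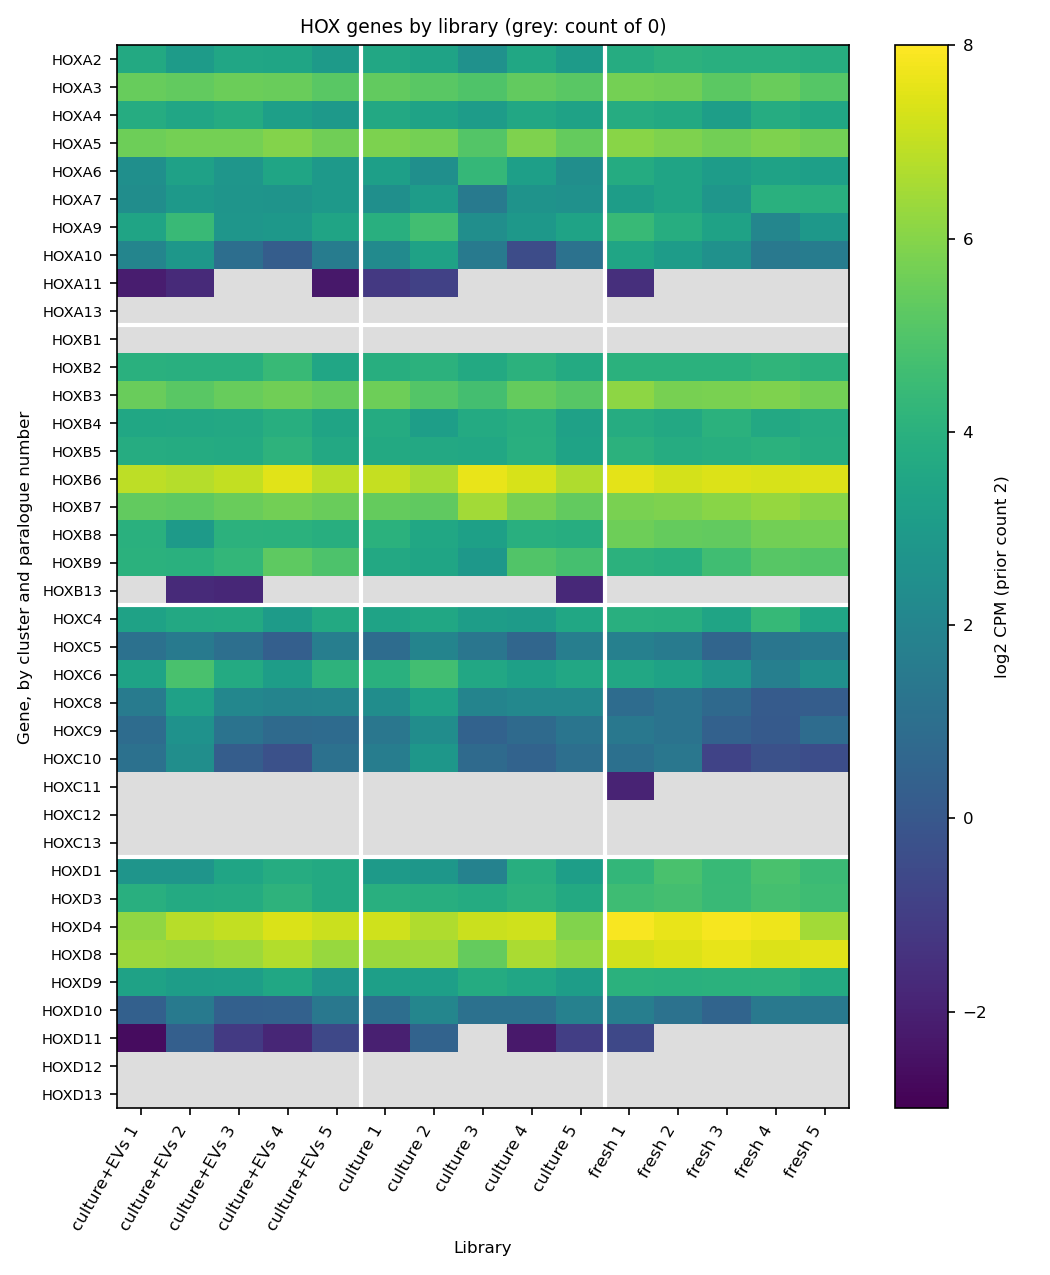
Level of the HOX genes described here (rows, by cluster and number) in each of the 15 libraries (columns, by group), as log2 CPM with a prior count of 2; grey cells have a count of 0. The genes numbered 1 to 10, apart from HOXB1, have colour in every library, and the genes numbered 11 to 13 are mostly grey.

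The series text names fresh tissue as the control of the explants. HOXA2, HOXA7, HOXB3, HOXB8 and 4 HOXD genes were lower and HOXC6 and HOXC8 higher in both cultures than in fresh tissue. Most other HOX genes were not called. Summed over the 39 genes, HOX transcripts took 638 to 889 CPM in culture with EVs, 583 to 819 CPM in culture and 921 to 1117 CPM in fresh tissue, and neither culture overlapped fresh tissue. Genes with many counts, among them HOXB6, HOXD4 and HOXD8, weigh most in such sums, which thus do not describe the whole set. The HOXD sum was 185 to 318 CPM in culture with EVs, 169 to 291 CPM in culture and 331 to 482 CPM in fresh tissue. The HOXC sum overlapped, at 24.2 to 64.2 CPM in culture with EVs, 26.3 to 63.0 CPM in culture and 22.1 to 37.1 CPM in fresh tissue. In these whole-tissue samples, fewer cells of a type and less RNA per cell cannot be told apart.

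By edgeR's quasi-likelihood test at an adjusted p under 0.05, 2 of 29 HOX genes were higher and 9 lower in culture with EVs than in fresh tissue. Over all genes tested, 27.4% were higher and 25.5% lower, or 52.9% called in all. In culture 2 were higher and 10 lower, against 28.7% and 25.6% of all genes, or 54.3% in all. The shares of HOX genes called lower (31.0% in culture with EVs and 34.5% in culture) were thus a little above those of all genes, and the shares called higher (6.90% in both) were below, with no test of either difference. The median log2 fold change of the 29 was -0.38 in culture with EVs and -0.28 in culture, against 0.01 and 0.04 over all genes. The 2 comparisons share the 5 fresh libraries, so the second is no independent repeat of the first. By cluster, 4 of 6 HOXD genes were lower in each culture. Of 6 HOXC genes, 2 were higher and 0 lower in culture with EVs, and 2 were higher and 1 lower in culture. The 11 genes numbered 1 to 4 had 0 higher and 4 lower in culture with EVs and 0 higher and 6 lower in culture. The 7 genes numbered 9 or 10 had 1 lower in each.

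**Figure D2:**
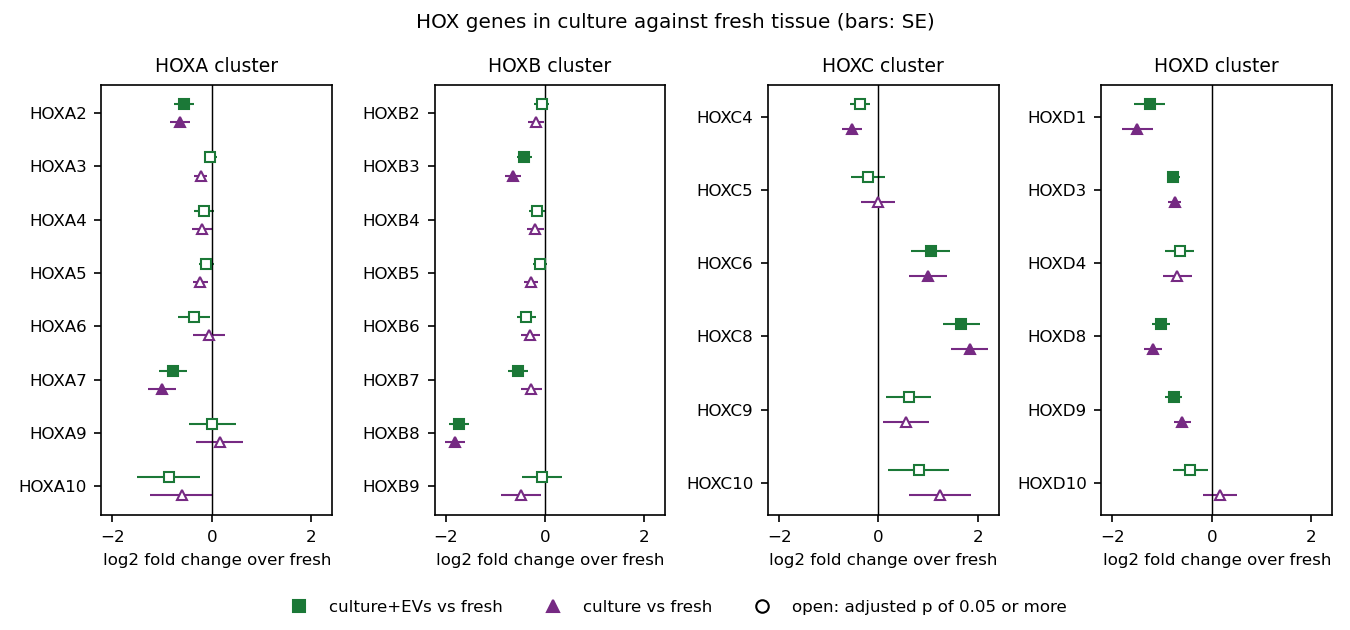
Log2 fold change over fresh tissue (x axis) of the tested HOX genes described here in culture with EVs (squares) and in culture (triangles), by cluster; bars are 1 SE and open symbols have an adjusted p of 0.05 or more. HOXB8, HOXD1, HOXD3, HOXD4, HOXD8 and HOXD9 lie left of 0, while HOXC6 and HOXC8 lie right of it in both cultures.

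HOXB8, a trunk gene that in mice also marks a lineage of microglia, had the largest fall of the 29 tested HOX genes. HOXB8 (gene 105261182) was at 15.5, 7.94, 16.5, 16.1 and 14.7 CPM in culture with EVs, 16.2, 11.7, 9.34, 15.2 and 14.3 CPM in culture and 47.8, 42.3, 41.1, 50.6 and 52.7 CPM in fresh tissue. Every cultured library was below every fresh one, and culture with EVs 2 was the lowest of all. The level was 3.31-fold lower in culture with EVs and 3.50-fold lower in culture, or log2 -1.73 ± 0.20 in culture with EVs (adjusted p = 4.52e-06) and -1.81 ± 0.20 in culture (adjusted p = 3.02e-06). The call held in the 8 other settings and in the 15 fits that each left out 1 library, as did those of HOXC8, HOXD1, HOXD3, HOXD8 and HOXD9 in both comparisons.

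In the HOXD cluster, HOXD1, HOXD3, HOXD8 and HOXD9 fell in both cultures. HOXD1 (gene 101093381), which in mice shapes pain-sensing neurons, was at 6.60, 6.60, 10.8, 13.9 and 12.7 CPM in culture with EVs, 7.96, 6.95, 3.63, 15 and 8.96 CPM in culture and 19.4, 28.3, 21.1, 28.8 and 22.6 CPM in fresh tissue. No cultured library reached the lowest fresh one, although the cultures themselves ranged widely. Its log2 fold change was -1.25 ± 0.31 in culture with EVs (adjusted p = 0.00353) and -1.50 ± 0.32 in culture (adjusted p = 0.000941). The non-coding gene LOC102899140 overlaps HOXD1 in the annotation, and averaged 10.6 ± 1.95 CPM in culture with EVs, 8.92 ± 3.50 in culture and 21.2 ± 3.10 in fresh tissue (SD, n = 5 each). Its log2 fold change was -1.0 ± 0.25 in culture with EVs and -1.24 ± 0.25 in culture. Whether the counting used strand is unknown, so the division of reads between these overlapping genes is uncertain.

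HOXD3 (gene 101093127), a patterning gene of the upper neck vertebrae in mice, was at 15.1, 13, 13.7, 17.4 and 12.9 CPM in culture with EVs, 15.4, 14.6, 13.7, 16.8 and 12.9 CPM in culture and 24.1, 26.2, 22.1, 27.2 and 23.6 CPM in fresh tissue. The cultures lay close together and apart from fresh tissue. On the log2 scale the difference from fresh tissue was -0.77 ± 0.13 in culture with EVs (adjusted p = 0.000136) and -0.75 ± 0.13 in culture (adjusted p = 0.000176). HOXD8 (gene 101092873), a trunk gene, was at 80.8, 77.2, 83.6, 105 and 79.7 CPM in culture with EVs, 80.9, 84.4, 42.0, 97.6 and 74.7 CPM in culture and 149.9, 171, 190.4, 171 and 181 CPM in fresh tissue. Both cultures were below all fresh libraries, and culture 3 was the lowest. It differed from fresh tissue by a log2 value of -1.02 ± 0.18 in culture with EVs (adjusted p = 0.000212) and -1.19 ± 0.18 in culture (adjusted p = 5.47e-05). HOXD9 (gene 101092629), a gene of the lower trunk and limbs whose annotated span overlaps HOXD10 and HOXD11, was at 9.88, 8.64, 8.86, 11.8 and 6.71 CPM in culture with EVs, 9.30, 9.23, 13.6, 11.2 and 8.54 CPM in culture and 16.2, 15.8, 16, 16.9 and 13.2 CPM in fresh tissue. Culture with EVs was below all fresh libraries, while culture 3 was above fresh 5. The log2 fold change was -0.77 ± 0.18 in culture with EVs (adjusted p = 0.00184) and -0.59 ± 0.18 in culture (adjusted p = 0.00987).

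The other HOXD genes were not called. HOXD4 (gene 101098156), a gene of the hindbrain and neck, was at 71.7, 113, 127, 168 and 137 CPM in culture with EVs, 146, 105, 138, 148 and 60.4 CPM in culture and 239, 199, 231, 209 and 87.7 CPM in fresh tissue. Fresh 5 was far below the other fresh libraries and inside the range of the cultures. It differed from fresh tissue by a log2 value of -0.65 ± 0.29 in culture with EVs (adjusted p = 0.0759) and -0.69 ± 0.29 in culture (adjusted p = 0.0575). Without fresh 5 it was -0.83 in culture with EVs (adjusted p = 0.0159) and -0.87 in culture (adjusted p = 0.0114). It was also called in culture with EVs without culture with EVs 4 (-0.80, adjusted p = 0.0457) or culture 5 (-0.66, adjusted p = 0.0449), and in culture without culture with EVs 1 (-0.70, adjusted p = 0.0466). DESeq2 called it lower in culture with EVs (-0.70, adjusted p = 0.0413) and in culture (-0.73, adjusted p = 0.0331). Upper-quartile scaling also called it in culture with EVs (-0.75, adjusted p = 0.0436) and in culture (-0.78, adjusted p = 0.0353), and relative log expression scaling in culture (-0.73, adjusted p = 0.0485). HOXD10, a hindlimb gene in mice, averaged 1.78 ± 0.761 CPM in culture with EVs, 2.69 ± 0.971 in culture and 2.40 ± 0.691 in fresh tissue (SD, n = 5 each). Its log2 fold change was -0.43 ± 0.35 in culture with EVs (adjusted p = 0.315) and 0.17 ± 0.34 in culture (adjusted p = 0.703).

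**Figure D3:**
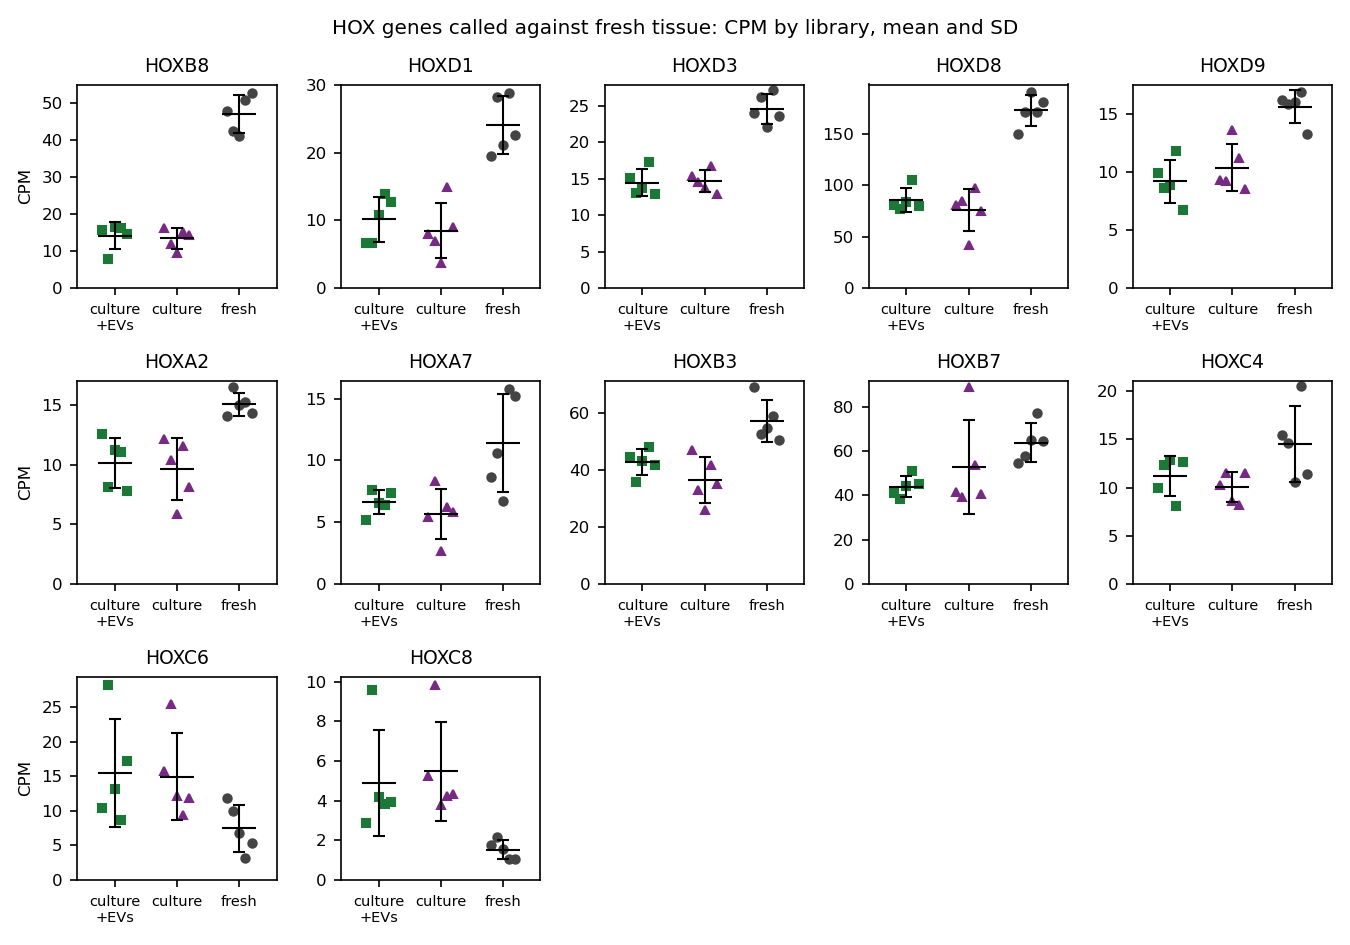
Level in CPM (y axis, from 0) of 12 HOX genes called in either comparison with fresh tissue; each point is 1 library, and the bars give the mean and SD of 5 libraries in culture with EVs, culture and fresh tissue. For HOXB8, HOXD1, HOXD3, HOXD8, HOXA2 and HOXB3 all cultured libraries lie below all fresh ones, and for HOXC8 all lie above.

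In the HOXA cluster, HOXA2 and HOXA7 fell in both cultures. HOXA2 (gene 101100376), which patterns the second pharyngeal arch, was at 12.6, 8.16, 11.2, 11.1 and 7.78 CPM in culture with EVs, 12.2, 10.4, 5.87, 11.6 and 8.17 CPM in culture and 14.1, 16.5, 15.1, 15.3 and 14.3 CPM in fresh tissue. All cultured libraries were below all fresh ones. On the log2 scale the difference from fresh tissue was -0.57 ± 0.20 in culture with EVs (adjusted p = 0.0275) and -0.64 ± 0.20 in culture (adjusted p = 0.0138). In culture with EVs the call was lost without culture with EVs 2 or 5 or fresh 2, at log2 values of -0.50 to -0.53 and adjusted p of 0.0578 to 0.0599, and at 0.0651 with no filter on low counts.

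HOXA7 (gene 101083253), a trunk gene, was at 5.17, 7.60, 6.60, 6.41 and 7.38 CPM in culture with EVs, 5.44, 8.32, 2.70, 6.20 and 5.80 CPM in culture and 8.69, 10.6, 6.73, 15.8 and 15.2 CPM in fresh tissue. Fresh 4 and 5 were the highest of all libraries, and fresh 3 lay inside the range of both cultures. On the log2 scale the difference from fresh tissue was -0.78 ± 0.29 in culture with EVs (adjusted p = 0.0312) and -1.0 ± 0.29 in culture (adjusted p = 0.00820). In culture with EVs the call was lost without culture with EVs 1 or fresh 4 or 5, at log2 values of -0.63 to -0.72 and adjusted p of 0.0641 to 0.0892, and at 0.0556 with no filter on low counts.

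HOXA3, HOXA4, HOXA5 and HOXA6 were not called in either culture. HOXA3, a gene of thymus and parathyroid formation, averaged 42.5 ± 3.93 CPM in culture with EVs, 37.3 ± 4.23 in culture and 43.4 ± 7.46 in fresh tissue (SD, n = 5 each). HOXA5, needed for lung formation in mice, averaged 52.8 ± 6.06 CPM in culture with EVs, 48.3 ± 10.5 in culture and 56.8 ± 6.75 in fresh tissue. The log2 fold changes of the 4 genes were -0.35 to -0.03 in culture with EVs and -0.23 to -0.06 in culture. For HOXA3 the 95% interval was -0.31 to 0.26 in culture with EVs and -0.50 to 0.07 in culture. HOXA5 and HOXA6 overlap each other in the annotation, and reads in the shared part may be split between them. HOXA6 was at 20.1 CPM in culture 3, and at no more than 10.9 CPM in the other cultured libraries. Run with sample quality weights, limma-voom called HOXA6 lower in culture with EVs (-0.52, adjusted p = 0.0336).

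In the HOXB cluster, HOXB3 fell in both cultures, and HOXB7 was called lower in culture with EVs. HOXB3 (gene 101083307), a hindbrain and neck gene whose annotated span covers HOXB4, HOXB5 and HOXB6, was at 44.5, 36.0, 43.3, 48.2 and 41.9 CPM in culture with EVs, 47.2, 33.1, 26.1, 41.6 and 35.0 CPM in culture and 69.3, 52.8, 54.7, 59.1 and 50.6 CPM in fresh tissue. All cultured libraries were below all fresh ones. It differed from fresh tissue by a log2 value of -0.42 ± 0.15 in culture with EVs (adjusted p = 0.0291) and -0.65 ± 0.15 in culture (adjusted p = 0.00218). In culture with EVs the call was lost without culture with EVs 2 or fresh 1 or 4, at log2 values of -0.34 to -0.41 and adjusted p of 0.0557 to 0.0874, and at 0.0737 with no filter. HOXB7 (gene 101082533), a trunk gene, was at 41.0, 38.5, 44.3, 50.8 and 45.4 CPM in culture with EVs, 41.7, 39.2, 89.1, 53.7 and 40.7 CPM in culture and 54.5, 57.8, 65.1, 77.3 and 64.7 CPM in fresh tissue. Culture 3 was above every fresh library, while the other cultures and all of culture with EVs were below every fresh one.

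The log2 fold change of HOXB7 was -0.54 ± 0.20 in culture with EVs (adjusted p = 0.0356) and -0.27 ± 0.20 in culture (adjusted p = 0.268). Without culture 3 it was -0.53 in culture (adjusted p = 0.00198). With all libraries, each given a quality weight, limma-voom gave -0.50 there (adjusted p = 0.00213). In culture with EVs the call was lost without any 1 of culture with EVs 1, 2, 3 and 5 and fresh 3, 4 and 5, at log2 values of -0.46 to -0.56 and adjusted p of 0.0561 to 0.0897, and at 0.0575 with no filter. HOXB6 (gene 101083047), its neighbour, was at 118, 109, 126, 179 and 115 CPM in culture with EVs, 129, 93.7, 198, 162 and 104 CPM in culture and 185, 154, 169, 162 and 171 CPM in fresh tissue. Culture 3 was again the highest of all libraries. The log2 fold change was -0.38 ± 0.19 in culture with EVs (adjusted p = 0.111) and -0.29 ± 0.19 in culture (adjusted p = 0.209), and without culture 3 it was -0.45 in culture (adjusted p = 0.0306). Without culture with EVs 4 it was -0.54 in culture with EVs (adjusted p = 0.0306). With all libraries and the same weights, limma-voom called HOXB6 lower in culture with EVs (-0.43, adjusted p = 0.00801) and in culture (-0.41, adjusted p = 0.0200). It was also called lower in culture with EVs in a fit of these 2 groups alone (-0.38, adjusted p = 0.0300) and under upper-quartile scaling (-0.48, adjusted p = 0.0464).

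HOXB2, HOXB4, a gene known for expanding blood stem cells, and HOXB5 were not called in either culture. HOXB4 averaged 12.3 ± 1.59 CPM in culture with EVs, 12 ± 2.54 in culture and 13.7 ± 1.66 in fresh tissue (SD, n = 5 each), and HOXB2 averaged 15.9 ± 3.53 CPM in culture with EVs, 14.7 ± 1.83 in culture and 16.7 ± 1.05 in fresh tissue. The log2 fold changes of the 3 genes were -0.16 to -0.07 in culture with EVs and -0.28 to -0.18 in culture. HOXB5 was called lower in culture without culture 4 (-0.36, adjusted p = 0.0492), by DESeq2 (-0.32, adjusted p = 0.0328) and under upper-quartile scaling (-0.38, adjusted p = 0.0334).

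In the HOXC cluster, HOXC6 and HOXC8 rose in both cultures, and HOXC4 was called lower in culture. HOXC8 (gene 101090273), a gene of the thoracic skeleton in mice, was at 2.89, 9.59, 4.17, 3.86 and 3.94 CPM in culture with EVs, 5.24, 9.83, 3.79, 4.24 and 4.32 CPM in culture and 1.76, 2.17, 1.58, 1.04 and 1.08 CPM in fresh tissue. All cultured libraries were above all fresh ones, and library 2 was the highest in each of the 3 groups. The level was 3.18-fold higher in culture with EVs and 3.57-fold higher in culture, or log2 1.67 ± 0.37 in culture with EVs (adjusted p = 0.00154) and 1.84 ± 0.38 in culture (adjusted p = 0.000742). HOXC6 (gene 101090529), a gene of the thorax and mammary region, was at 10.5, 28.2, 13.1, 8.62 and 17.2 CPM in culture with EVs, 15.8, 25.5, 12.1, 9.44 and 11.9 CPM in culture and 11.8, 9.99, 6.82, 3.23 and 5.41 CPM in fresh tissue. The groups overlapped, and library 2 was far above the rest in both cultures. It differed from fresh tissue by a log2 value of 1.05 ± 0.39 in culture with EVs (adjusted p = 0.0321) and 1.0 ± 0.39 in culture (adjusted p = 0.0395).

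In the test without the replicate number, the HOXC6 call depended on single libraries. In culture with EVs it was lost without culture with EVs 2 or 5 or fresh 3, 4 or 5, at log2 values of 0.71 to 1.02 and adjusted p of 0.0620 to 0.125, and under upper-quartile scaling (0.94, adjusted p = 0.0513). In culture it was lost without culture 1 or 2 or fresh 3, 4 or 5, at 0.73 to 0.98 and adjusted p of 0.0637 to 0.122, and under the same scaling (0.91, adjusted p = 0.0582). With the replicate number as a block, HOXC6 was at 1.06 ± 0.24 in culture with EVs (adjusted p = 0.00253) and 1.02 ± 0.24 in culture (adjusted p = 0.00309). Between culture and fresh tissue, 4 of 5 libraries deviated most like their own number, with a correlation of only 0.0326 for number 3. The annotated span of HOXC4 covers HOXC5, HOXC6 and HOXC8, so the division of reads among these 4 genes is uncertain.

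HOXC4 (gene 105260742), a low-numbered gene also active in lymphocytes, was at 9.95, 12.4, 12.8, 8.11 and 12.6 CPM in culture with EVs, 10.3, 11.6, 8.62, 8.20 and 11.5 CPM in culture and 15.4, 14.6, 10.6, 20.5 and 11.4 CPM in fresh tissue. The groups overlapped, with fresh 4 the highest of all. On the log2 scale the difference from fresh tissue was -0.38 ± 0.20 in culture with EVs (adjusted p = 0.130) and -0.53 ± 0.20 in culture (adjusted p = 0.0373). The call in culture was lost without culture 1, 3 or 4 or fresh 1, 2 or 4, at log2 values of -0.37 to -0.54 and adjusted p of 0.0548 to 0.125. It was also lost with no filter (0.0756) and in a fit of these 2 groups alone (0.0602). HOXC5, HOXC9 and HOXC10 were not called. HOXC5 averaged 2.22 ± 0.773 CPM in culture with EVs, 2.53 ± 0.970 in culture and 2.55 ± 0.719 in fresh tissue (SD, n = 5 each). HOXC9 averaged 2.67 ± 1.89 CPM in culture with EVs, 2.58 ± 1.54 in culture and 1.74 ± 0.652 in fresh tissue, with a log2 fold change of 0.61 ± 0.46 in culture with EVs (adjusted p = 0.282) and 0.56 ± 0.46 in culture (adjusted p = 0.317).

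Lists of cell type markers were counted beside these genes, against 27.4% of all genes tested higher and 25.5% lower in culture with EVs, and 28.7% higher and 25.6% lower in culture. Of 12 fibroblast markers, 6 were higher and 1 lower in each culture, and their summed level was 1183 to 12125 CPM in culture with EVs, 1536 to 16784 CPM in culture and 678 to 2638 CPM in fresh tissue. Of 12 smooth muscle markers, 4 were higher in culture with EVs and 5 in culture, with 0 lower, and they summed to 921 to 5585 CPM in culture with EVs, 1653 to 5757 CPM in culture and 917 to 2342 CPM in fresh tissue. For both lists the summed levels of each culture overlapped those of fresh tissue. Of 9 tested principal cell markers, 8 were lower and 1 higher in each culture. Basal cell markers rose, 9 of 10 in each culture with 1 lower, and summed to 2786 to 6712 CPM in culture with EVs, 2855 to 9744 CPM in culture and 886 to 1468 CPM in fresh tissue. General epithelial markers had 4 of 12 higher and 1 lower in culture with EVs, and 5 higher and 1 lower in culture. Endothelial markers had 6 of 12 higher and 0 lower in each culture. Macrophage markers had 3 of 10 higher and 1 lower in culture with EVs and 3 higher and 0 lower in culture. Lymphocyte markers had 3 of 7 lower and sperm transcripts 7 of 7 lower in each culture, with 0 higher. The part of these differences in the HOX differences was not tested.

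The comparison of culture with EVs and culture, which the series text names as its question, gave no HOX call. In this comparison 0 of 29 HOX genes and 0% of the 18038 genes tested were called by edgeR, and DESeq2 and limma-voom also called 0. At an unadjusted p under 0.05 there were 0 HOX genes and 183 genes in all. The smallest unadjusted p among the HOX genes was 0.104, for HOXD10, with a log2 fold change of -0.60 ± 0.35 (95% interval -1.33 to 0.14). The 29 values ran between -0.60 and 0.41, with a median of 0.05, and the groups overlapped for every gene.

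The width of the 95% intervals, taken here from the fit without the replicate number, differed by gene. HOXD3 was at -0.02 ± 0.13 with an interval of -0.30 to 0.25, and HOXB8 at 0.08 ± 0.20 with -0.34 to 0.50. HOXD8 was at 0.17 ± 0.18 with -0.21 to 0.54, and HOXC8 at -0.17 ± 0.36 with -0.93 to 0.60. The intervals of HOXA10 (-1.60 to 1.08) and HOXC10 (-1.71 to 0.86) were the widest of the 29. Both also moved with single libraries: HOXA10 was at 0.41 without culture 2, against -0.26 with all libraries, and HOXC10 was at -1.02 without culture with EVs 2 and 0.17 without culture 2, against -0.43.

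Same-numbered libraries of the 2 cultures deviated together, so the differences within numbers are given as well. HOXD10 was lower in culture with EVs in 5 of 5 same-numbered pairs, by log2 CPM differences of -0.58, -0.56, -0.73, -0.69 and -0.42. HOXB9 was higher in 5 of 5, by 0.37, 0.55, 1.42, 0.25 and 0.15, and the largest of these is the pair with culture 3. HOXA3 and HOXB5 were also higher in 5 of 5, by 0.01 to 0.57 and by 0.13 to 0.27. For HOXD10 and HOXA3 too the largest difference is in the pair with culture 3. These 4 are 13.8% of the 29 HOX genes, against 5.90% of all genes tested with 1 sign in all 5 pairs, a difference that was not tested. With the replicate number as a block, edgeR's quasi-likelihood test called 0 HOX genes and 0 genes in all, and at an unadjusted p under 0.05 there were 1 HOX gene and 206 genes in all. The 1 was HOXB9, at 0.51 ± 0.20 (95% interval 0.06 to 0.95, unadjusted p = 0.0302, adjusted p = 0.967). HOXD10 was at -0.62 ± 0.29 (95% interval -1.24 to 0.01, unadjusted p = 0.0526, adjusted p = 0.967).

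**Figure D4:**
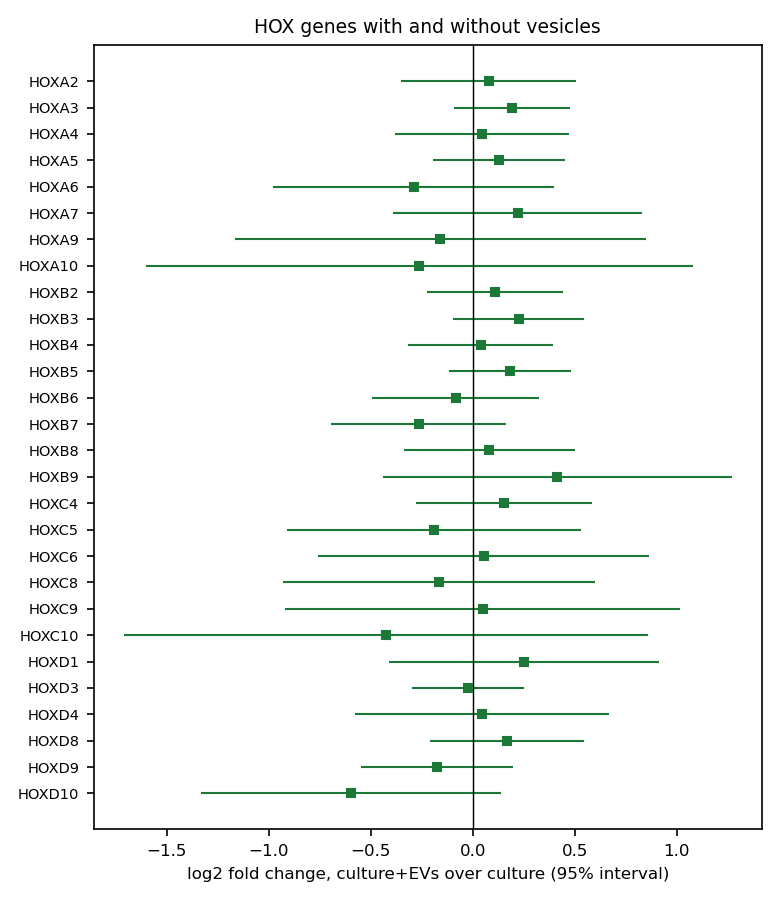
Log2 fold change of culture with EVs over culture (x axis) for the tested HOX genes described here, with 95% intervals from the fit without the replicate number. Every interval includes 0, and the points run between -0.60 and 0.41.

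Some of the higher-numbered HOX genes varied with the replicate number in the labels. A test of the replicate number over all 15 libraries, chosen after the values were seen, called 4 of 29 HOX genes (HOXA9, HOXA10, HOXB9 and HOXC10), against 5.38% of all genes. HOXA10 (gene 101080268), which acts at the epididymis to vas deferens border in mice, was at 3.96, 6.90, 1.90, 1.10 and 2.99 CPM in culture with EVs, 4.65, 10.1, 2.75, 0.640 and 2.11 CPM in culture and 10.9, 8.31, 5.85, 2.66 and 2.94 CPM in fresh tissue. Libraries 1 and 2 were the highest and library 4 the lowest in each of the 3 groups. HOXC10 (gene 101089782) was at 2.07, 5.25, 1.09, 0.748 and 2.09 CPM in culture with EVs, 3.07, 7.09, 1.66, 1.32 and 1.95 CPM in culture and 1.97, 2.45, 0.484, 0.750 and 0.670 CPM in fresh tissue. Library 2 was the highest in each group. HOXA9 (gene 101101453), a gene of the lower trunk also known from leukaemia, was at 10.6, 21.7, 6.84, 7.28 and 10.7 CPM in culture with EVs, 15.3, 25.3, 5.35, 7.28 and 10.4 CPM in culture and 21.1, 14.2, 10.2, 4.1 and 7.11 CPM in fresh tissue. Libraries 1 and 2 were again the highest in fresh tissue and in culture, and library 2 in culture with EVs.

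HOXB9 (gene 101082278), the HOXB paralogue of HOXA9, ran the other way and was at 16.1, 15.9, 19.3, 38.2 and 30.0 CPM in culture with EVs, 12.4, 10.8, 7.16, 32.2 and 27 CPM in culture and 16.5, 15.1, 24.9, 35.6 and 32.9 CPM in fresh tissue. Libraries 4 and 5 were the highest in each group, and libraries 1 and 2 were the lowest in fresh tissue and in culture with EVs. Adjusted p for the replicate number, from edgeR's quasi-likelihood test, was 0.00891 for HOXC10, 0.0158 for HOXA10, 0.0186 for HOXB9 and 0.0431 for HOXA9. HOXC6 (0.0563), HOXC8 (0.0635) and HOXC9 (0.0718) just missed the threshold, and the other genes described here had 0.300 or more. The count depends on single libraries: it was 0 without culture with EVs 2 or without culture 2, 1 without culture with EVs 4, 2 without culture 4, 7 without culture 3 and 3 to 5 without any other library. With limma-voom and sample quality weights it was 20 of 29, with 8248 of all genes called.

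Fibroblast and smooth muscle markers varied by number too. The replicate number was called for 10 of 12 fibroblast and 9 of 12 smooth muscle markers, against 0 of 12 general epithelial and 1 of 9 tested principal cell markers. The mean fibroblast level was 5.93, 8.33, 6.38, 5.36 and 7.07 log2 CPM in culture with EVs, 6.74, 8.70, 6.84, 5.86 and 6.58 in culture and 6.20, 6.86, 5.44, 5.01 and 5.43 in fresh tissue. Smooth muscle markers averaged 6.63, 7.50, 6.16, 5.34 and 6.01 log2 CPM in culture with EVs, 6.66, 7.60, 6.61, 6.03 and 6.03 in culture and 6.40, 6.45, 5.61, 5.26 and 5.18 in fresh tissue. Library 2 was the highest for both lists in every group, as it was for HOXC10. Library 4 was the lowest for fibroblast markers in every group, as it was for HOXA10. Other ranks differed: HOXA10 was highest in fresh 1, HOXC10 was lowest in fresh 3, and smooth muscle markers were lowest in fresh 5. HOXB9 ran the other way. Whether these markers account for the HOX differences between numbers was not tested, and the labels do not say what a number marks.

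None of these 4 genes was called between groups by the test without the replicate number. HOXA10 had a log2 fold change of -0.87 ± 0.63 in culture with EVs (adjusted p = 0.265) and -0.60 ± 0.63 in culture (adjusted p = 0.435), and HOXC10 had 0.82 ± 0.62 in culture with EVs (adjusted p = 0.282) and 1.24 ± 0.62 in culture (adjusted p = 0.101). HOXA9 had 0.01 ± 0.47 in culture with EVs (adjusted p = 0.993) and 0.17 ± 0.47 in culture (adjusted p = 0.787), and HOXB9 had -0.06 ± 0.40 in culture with EVs (adjusted p = 0.908) and -0.48 ± 0.40 in culture (adjusted p = 0.331). With the replicate number as a block, HOXA10 was lower (-0.95, adjusted p = 0.0216) and HOXC10 higher (0.78, adjusted p = 0.0319) in culture with EVs than in fresh tissue. In culture the block called HOXA10 (-0.89, adjusted p = 0.0289) and HOXB9 (-0.59, adjusted p = 0.0278) lower. It called HOXC10 higher there (1.22, adjusted p = 0.00266), but culture and fresh tissue are not shown to pair by number. Without the block, HOXA10 in culture was at -1.27 when culture 2 was left out (adjusted p = 0.0970), and HOXC10 in culture with EVs was at 0.21 when culture with EVs 2 was left out (adjusted p = 0.789).

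**Figure D5:**
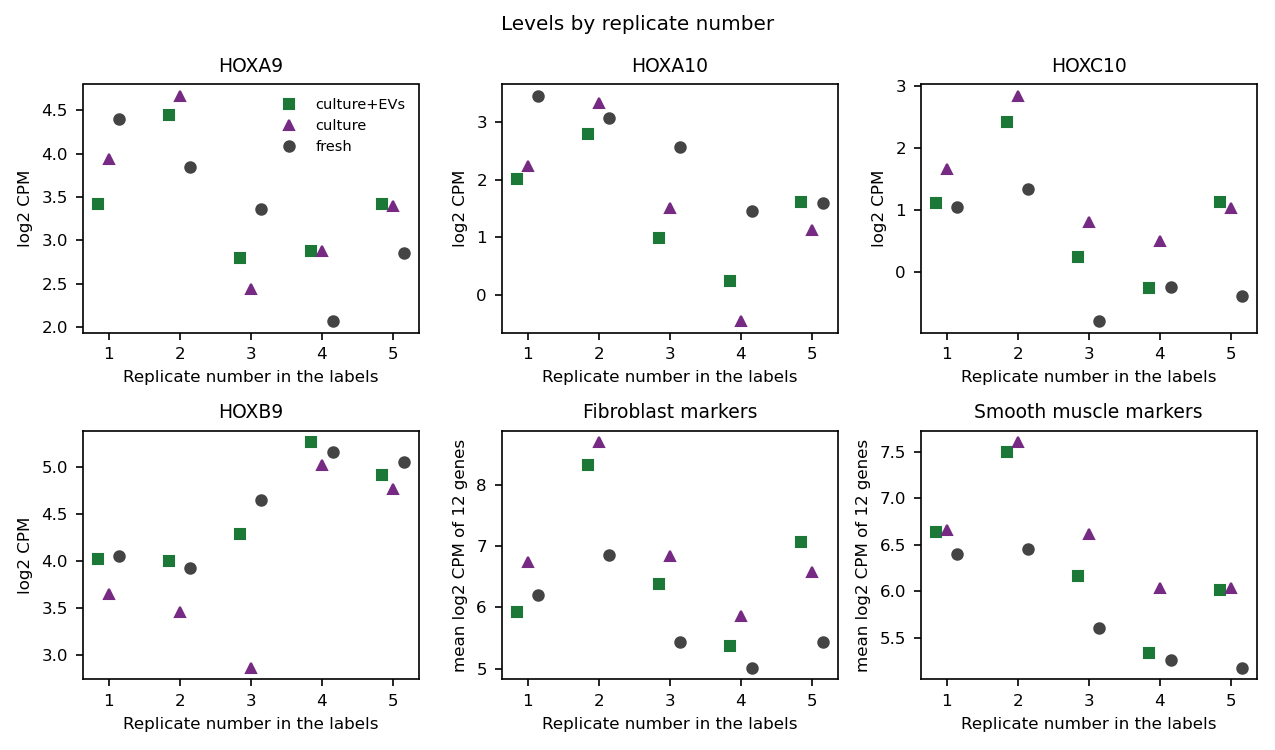
Log2 CPM (y axis) of HOXA9, HOXA10, HOXC10 and HOXB9 and the mean log2 CPM of 12 fibroblast and 12 smooth muscle markers, by replicate number in the labels (x axis) in culture with EVs (squares), culture (triangles) and fresh tissue (circles). Number 2 is high in the panels of HOXC10 and of both marker lists, and numbers 4 and 5 are high in the panel of HOXB9.

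Other transcripts of the clusters were examined beside the HOX genes. Between the outermost HOX genes of the 4 clusters the annotation has 20 further genes, most of them non-coding, of which 12 were tested. In culture with EVs 1 was higher and 6 lower than in fresh tissue, and in culture 2 were higher and 5 lower. Among all genes tested, 27.4% were higher and 25.5% lower in culture with EVs, and 28.7% and 25.6% in culture. The non-coding gene LOC105260377, inside the HOXA cluster but overlapping no HOX gene, averaged 4.45 ± 0.881 CPM in culture with EVs, 4.74 ± 1.36 in culture and 24.3 ± 4.18 in fresh tissue (SD, n = 5 each). Its log2 fold change was -2.44 ± 0.23 in culture with EVs and -2.35 ± 0.23 in culture. In the HOXD cluster, LOC111561875, which overlaps no HOX gene, was at -1.56 ± 0.38 in culture with EVs and -1.75 ± 0.38 in culture. LOC109502747, which overlaps HOXD4, was at -1.61 ± 0.24 in culture with EVs and -1.48 ± 0.24 in culture. Going the other way, LOC102901415, which overlaps HOXA3, was at 0.71 ± 0.23 in culture with EVs and 0.99 ± 0.23 in culture. LOC109494344, which overlaps HOXB3, was called higher in culture (1.18 ± 0.33) and not called in culture with EVs (0.75 ± 0.33). Of the 16 nearest protein-coding genes outside the clusters, 12 were tested: 3 were higher and 1 lower in culture with EVs, and 2 higher and 1 lower in culture. HIBADH, beside the HOXA cluster, was at 1.88 ± 0.30 in culture with EVs and 1.96 ± 0.30 in culture, and CBX5, a heterochromatin protein gene beside the HOXC cluster, at 0.48 ± 0.13 in culture with EVs and 0.37 ± 0.13 in culture. SKAP2, on the other side of the HOXA cluster, was the 1 that fell, at -0.64 ± 0.19 in culture with EVs and -0.73 ± 0.19 in culture. EVX1 and EVX2, homeobox genes at the ends of the HOXA and HOXD clusters, had 0 counts in every library.

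HOX proteins bind DNA with cofactors of the PBX, MEIS and PKNOX families. Of these 9 genes, 2 were higher and 1 lower in each culture. All genes tested had 27.4% higher and 25.5% lower in culture with EVs, and 28.7% and 25.6% in culture. The list's median log2 fold change was 0.03 in culture with EVs and 0.06 in culture. PKNOX1 rose (0.74 ± 0.11 in culture with EVs and 0.72 ± 0.11 in culture), MEIS3 rose (1.44 ± 0.36 in culture with EVs and 1.46 ± 0.36 in culture) and PBX3 fell (-1.09 ± 0.25 in culture with EVs and -1.08 ± 0.25 in culture), with adjusted p of 0.00322 or less. PBX2, PBX4, MEIS1, MEIS2 and PKNOX2 were among those not called.

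Polycomb and trithorax complexes keep HOX genes off and on. The counts of these lists stand against 27.4% of all genes tested higher and 25.5% lower in culture with EVs. In culture these shares were 28.7% and 25.6%, and no list was tested against them. Polycomb repressive complex 2, which methylates histone H3, had 2 of 11 genes higher and 4 lower in culture with EVs, and 2 higher and 3 lower in culture. The list's median log2 fold change was -0.16 in culture with EVs and -0.17 in culture. PHF19 rose (1.36 ± 0.23 in culture with EVs and 1.48 ± 0.23 in culture), EED rose (0.59 ± 0.12 in culture with EVs and 0.59 ± 0.12 in culture) and RBBP7 fell (-0.78 ± 0.15 in culture with EVs and -0.80 ± 0.15 in culture). Polycomb repressive complex 1, which compacts the marked chromatin, had 3 of 17 higher and 3 lower in culture with EVs, and 4 higher and 2 lower in culture. The list's median log2 fold change was 0.20 in culture with EVs and 0.14 in culture. PHC2 rose (1.93 ± 0.21 in culture with EVs and 2.16 ± 0.21 in culture), PCGF6 rose (0.94 ± 0.12 in culture with EVs and 0.87 ± 0.12 in culture) and CBX7, a reader of the methyl mark, fell (-1.75 ± 0.22 in culture with EVs and -1.45 ± 0.22 in culture). Of 13 trithorax and demethylase genes, 1 was higher and 2 lower in culture with EVs, and 1 higher and 1 lower in culture. The list's median log2 fold change was -0.04 in culture with EVs and -0.01 in culture. Among these KMT2C fell (-0.91 ± 0.14 in culture with EVs and -0.91 ± 0.14 in culture). The called genes named here had adjusted p of 0.000937 or less.

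Retinoic acid, made from vitamin A, switches on low-numbered HOX genes in embryos. Of 15 tested genes of its synthesis, breakdown and receptors, 9 were higher and 5 lower in culture with EVs. In culture 9 were higher and 4 lower, so the list moved in both directions. Beside this, 27.4% of all genes tested were higher and 25.5% lower in culture with EVs, and 28.7% and 25.6% in culture. The list's median log2 fold change was 1.18 in culture with EVs and 1.23 in culture. STRA6, a retinol transporter, rose (3.04 ± 0.16 in culture with EVs and 3.03 ± 0.16 in culture), as did the receptor RARA (2.44 ± 0.17 in culture with EVs and 2.47 ± 0.17 in culture). DHRS3, which turns retinal back to retinol, also rose (1.85 ± 0.28 in culture with EVs and 2.31 ± 0.29 in culture). ALDH1A2, an enzyme that makes retinoic acid from retinal, fell (-2.48 ± 0.32 in culture with EVs and -2.16 ± 0.31 in culture). Of 2 other such enzymes, named after their values were seen, ALDH1A1 fell (-1.84 ± 0.26 in culture with EVs and -1.96 ± 0.26 in culture) and ALDH1A3 rose (3.19 ± 0.47 in culture with EVs and 3.32 ± 0.47 in culture). Adjusted p for these 6 genes was 6.24e-05 or less.

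Other transcription factors of the male tract were more often called lower than higher. Of 13 tested, 1 was higher and 6 lower in culture with EVs, and 1 higher and 7 lower in culture. The shares over all genes tested were 27.4% higher and 25.5% lower in culture with EVs, and 28.7% and 25.6% in culture. The difference from these shares was not tested. The list's median log2 fold change was -0.86 in culture with EVs and -0.86 in culture. PAX2, needed to form the duct from which the epididymis arises, fell (-2.0 ± 0.20 in culture with EVs and -2.14 ± 0.20 in culture), as did PAX8 (-1.63 ± 0.21 in culture with EVs and -1.67 ± 0.21 in culture), with adjusted p of 1.0e-05 or less. WT1, a gene of mesothelium and gonad named after its values were seen, was the 1 that rose (1.85 ± 0.65 in culture with EVs and 2.03 ± 0.66 in culture; adjusted p = 0.0269 and 0.0162). Of 13 listed homeobox genes related to HOX but outside the clusters, 12 were found among the genes counted and 3 passed the filter. GBX1 rose in both cultures (2.17 ± 0.42 in culture with EVs and 2.42 ± 0.43 in culture), and MEOX1 and MEOX2 were not called.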

How the data were processed

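RNA from 15 cat corpus epididymis samples was sequenced from TruSeq Stranded mRNA libraries, per the labels' protocols. StringTie 2.1.3b, HISAT2 2.1.0, Trimmomatic 0.38 and Bowtie2 2.3.4.1 are named, without their roles, per the submitters' processing notes. For the build, annotation, counting program and use of strand, nothing was stated in the labels or file header. The authors deposited raw read counts per gene, which were used as deposited. RefSeq's F.catus_Fca126_mat1.0 table matched all 38995 gene IDs and gave names and gene order.

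Genes passed filterByExpr (minimum count 10, minimum total 15). Counts were scaled by trimmed mean of M values and tested with edgeR 4.0.16 (R 4.3.3), by quasi-likelihood in 1 fit of the 3 groups, with Benjamini-Hochberg adjustment over 18038 genes and calls at an adjusted p under 0.05. The test was checked on simulated data. Alternatives were other scalings and filters, DESeq2 1.42.0, limma 3.58.1 (voom with sample quality weights), a replicate block, the 2 groups alone and each library left out. Total counts of 17308832 to 27420218 limit low genes, and floors of 3 counts cover counting error only.

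Replicate numbers recur in the labels. Same-numbered libraries deviated together, with correlations of 0.242 to 0.362 between culture with EVs and fresh tissue and 0.181 to 0.602 between the 2 cultures. Between culture and fresh tissue the correlations were 0.198 to 0.344, apart from 0.0326 for number 3. The test given has no block, and blocked values are given where they change a call of a gene named here or a pair is described. Named were HOX genes by values or range, up to 3 called genes a list with the smallest adjusted p, and cluster neighbours. The members and lists were chosen with earlier results of these data known. A few genes that enter the counts, sums and medians, 1 of them a HOX gene, are not reported here by name.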

Additional observations from a re-analysis of the deposited data

Results flagged for a closer look

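Of 87 sets of 5 libraries (29 HOX genes in 3 groups), 7 had 1 library far from the other 4 on the log2 CPM scale, where chance flags about 1 in 20. HOXB8 in culture with EVs 2 was at 3.01, against 3.89 in the nearest library of the group. HOXC9 in culture with EVs 2 was at 2.61, against 1.19. HOXB6 in culture with EVs 4 was at 7.49, against 6.98, and HOXD8 in culture with EVs 4 was at 6.72, against 6.39. HOXD4 in fresh 5 was at 6.46, against 7.64, and HOXD9 in fresh 5 was at 3.74, against 3.99. HOXB2 in fresh 4 was at 4.22, against 4.06. None of the 7 was in culture 3, the library low in mitochondrial transcripts.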

How the results depend on the processing

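No called HOX gene changed direction under any alternative run. All 10 called genes other than HOXC4 and HOXC6 stayed called in culture, and 6 of 11 in culture with EVs. Under upper-quartile scaling 1 HOX gene was higher in each comparison with fresh tissue. That scaling moved the median of all genes to -0.09 in culture with EVs and -0.06 in culture. With no filter on low counts 5 were lower in culture with EVs. The cause was not tested. Leaving out 1 library gave 1 to 2 higher in both comparisons, 6 to 12 lower in culture with EVs and 9 to 11 lower in culture. With the replicate number as a block, 3 HOX genes were higher and 11 lower in culture with EVs, and 3 higher and 13 lower in culture. Between culture and fresh tissue, 4 of 5 libraries were closest to their own number. The correlation there was 0.0326 for number 3 and 0.198 to 0.344 for the others. In culture the block added HOXA10, HOXB9, HOXC10, HOXB5 (-0.29, adjusted p = 0.0493) and HOXD4 (-0.70, adjusted p = 0.0421) and lost HOXC4 (adjusted p = 0.0541). Between culture with EVs and culture every alternative called 0 HOX genes. The replicate number called 0 to 7 HOX genes and 290 to 2334 of all genes without 1 library, and 20 and 8248 with limma-voom.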
